A study of Mus musculus with 36 samples.

Results

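The estrogen receptor genes and their coregulators were followed at the level of DNA methylation in 9 mouse genes, Esr1, Esr2, Esrra, Esrrb, Pgr, Greb1, Nrip1, Ncoa1 and Ncoa3. These genes were chosen by name, and their CpG clusters were all those that overlapped the gene or the 5 kb on either side of it. A cluster is a run of positions in the data with no gap over 100 bp. This gave 15 of the 18009 clusters in the data, with 1081 listed positions. All 15 were among the 16734 clusters with at least 1 position measured in all 36 samples, and 842 of the 1081 positions were complete in this sense. Of the 15 clusters, 12 lay within 1000 bp of a transcription start of the gene and are called promoter clusters here, 1 lay in the gene body and 2 in the flanks. Every gene had at least 1 promoter cluster.

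The samples were cultures of B3, a mouse pre-B cell line, in 2 series of 18 samples. Cells of the Ikaros series carried a retroviral HA-Ikaros-ERt2-IRES-GFP construct, in which Ikaros, a transcription factor of lymphoid development, is joined to the hormone-binding part of the estrogen receptor (ERt2). Cells of the Control series carried the ERt2 vector without Ikaros. Both series received 0.5 µM 4-hydroxytamoxifen (4-OHT) and were collected at 0, 2, 6, 12, 18 and 24 h, with 3 replicates per series and time point, and reduced representation bisulfite sequencing (RRBS) gave the methylation level of each CpG position. The study's methods state that the 0 h cells received no 4-OHT and were obtained separately from the other time points, whereas the sample labels carry the same dose on all samples, so at 0 h the absence of 4-OHT and the separate collection cannot be told apart. Each series was 1 transduced and GFP-sorted population, so a difference between the series and a difference between the sorted populations cannot be told apart. Replicate 1 was batch 1 and replicate 3 was batch 4, whereas replicate 2 was batch 2 at 0 h and batch 3 at the later time points.

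Estrogen receptors are nuclear receptors that bind hormone, attach to estrogen response elements in DNA and recruit coactivators or corepressors. Esr1 and Esr2 encode the receptors alpha and beta, and Esrra and Esrrb encode estrogen-related receptors, which resemble them but do not bind estrogen. Pgr, the progesterone receptor, and Greb1, a growth regulator, are classical targets of the alpha receptor. Nrip1 (RIP140) is a corepressor that binds hormone-bound receptors, and Ncoa1 (SRC-1) and Ncoa3 (SRC-3) are coactivators of the p160 family. 4-OHT, the active metabolite of tamoxifen, is a ligand of both estrogen receptors and was used in this system to activate the ERt2 fusion protein. Methylation of a CpG-dense promoter is commonly found at silent genes, and its absence at genes that are active or can be activated.

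The values were smoothed levels without coverage, so the depth behind each of them is unknown. The share of empty positions over the whole table ranged from 0.11% to 11.6% per sample and was highest in Control 0 h replicate 1, which also lacked 195 of the 1081 member positions (18.0%). Positions at exactly 0 or 1, which can become more frequent with fewer reads, accounted for 36.2% ± 7.63 (SD, n = 18) of positions per Ikaros sample and for 27.9% ± 4.89 (SD, n = 18) per Control sample. Of 11 B lineage markers, 3 had a promoter cluster, and Pax5, Ebf1 and Vpreb1 were at 0.205% to 0.982%. Of 6 T lineage markers, 1 had a promoter cluster (Lck, 79.6%), and of 5 myeloid markers also 1 (Cebpa, 97.8% to 98.2%). Of 4 epithelial markers, 3 had one, and Epcam, Cdh1 and Krt18 were at 91.2% to 97.6%. The few promoters that could be checked thus went with the label of a pre-B line. Outside promoters, a cluster in the flank of the T lineage marker Cd3g was at 0.505% and one in that of Cd4 at 82.3%.

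Sequences of 4 promoters are given to show CpG-rich regions of the methylated and the unmethylated class. They are written 5′ to 3′ on the strand of the gene, in GRCm38.p6 coordinates, with each CG that was listed in the data in capitals and unlisted CGs in lower case. The Greb1 sequence (chr12:16800837-16801136, minus strand, from the RefSeq promoter table) was methylated, with 11 of 19 CGs listed. The Nrip1 sequence (chr16:76372894-76373156, minus strand) is a whole cluster in an annotated UTR with 43 of 45 CGs listed, and was also methylated. The Esrra sequence (chr19:6921759-6922058, minus strand, from the RefSeq promoter table), with 20 of 25 CGs listed, and the Ncoa3 sequence (chr2:165992617-165992916, plus strand), with 37 of 46, were unmethylated.
Greb1: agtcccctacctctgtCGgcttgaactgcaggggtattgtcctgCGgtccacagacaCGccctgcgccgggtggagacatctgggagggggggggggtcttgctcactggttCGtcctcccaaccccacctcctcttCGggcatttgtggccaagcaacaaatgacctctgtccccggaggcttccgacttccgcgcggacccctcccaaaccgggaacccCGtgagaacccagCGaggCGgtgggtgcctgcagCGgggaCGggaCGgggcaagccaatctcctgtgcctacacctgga
Nrip1: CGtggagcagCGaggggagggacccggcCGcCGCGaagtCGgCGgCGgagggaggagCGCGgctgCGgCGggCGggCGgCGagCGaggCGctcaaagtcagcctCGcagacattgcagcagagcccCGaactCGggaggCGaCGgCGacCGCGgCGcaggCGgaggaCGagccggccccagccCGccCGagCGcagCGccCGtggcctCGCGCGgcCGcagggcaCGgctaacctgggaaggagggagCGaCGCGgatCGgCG
Esrra: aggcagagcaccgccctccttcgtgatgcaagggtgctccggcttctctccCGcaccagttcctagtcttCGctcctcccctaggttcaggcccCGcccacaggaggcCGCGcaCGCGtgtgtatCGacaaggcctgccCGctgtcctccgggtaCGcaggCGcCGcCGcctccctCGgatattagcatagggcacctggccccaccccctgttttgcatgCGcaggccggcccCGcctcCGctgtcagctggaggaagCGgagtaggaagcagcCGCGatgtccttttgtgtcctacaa
Ncoa3: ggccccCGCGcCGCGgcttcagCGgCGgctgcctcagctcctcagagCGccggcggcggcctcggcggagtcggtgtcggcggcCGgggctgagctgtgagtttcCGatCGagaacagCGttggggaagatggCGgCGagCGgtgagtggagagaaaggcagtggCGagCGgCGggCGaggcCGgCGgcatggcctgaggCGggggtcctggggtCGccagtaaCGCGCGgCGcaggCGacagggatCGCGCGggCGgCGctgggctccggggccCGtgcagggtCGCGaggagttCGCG

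Of the 9 genes, 5 had promoter clusters that were all above 90% methylated (Esr1, Esrrb, Pgr, Greb1 and Nrip1), 3 had promoter clusters below 10% (Esrra, Ncoa1 and Ncoa3), and Esr2 lay between. Among the 10 member clusters above 90%, the lowest value in any sample was 86.0% and the highest 100%. In the 4 clusters below 10%, the values ran from 0.0% to 2.74%. No sample thus brought a cluster of one class near the other, as the plot of the members' levels by sample shows.

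**Figure D1:**
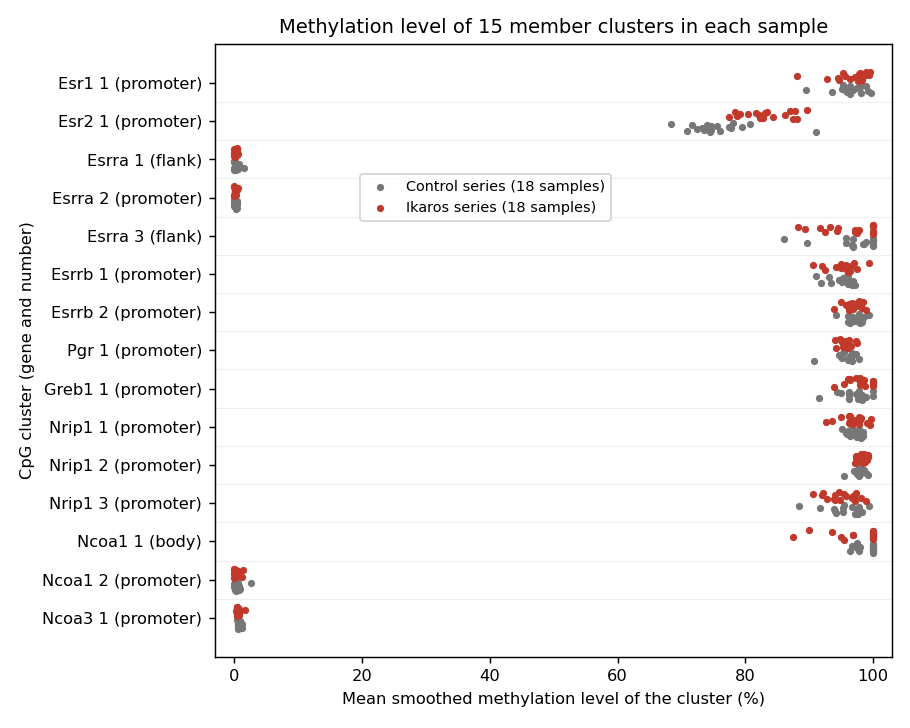
Mean smoothed methylation level (%, x axis) of each of the 15 member clusters (y axis, with its place relative to the gene) in each of the 36 samples, 1 point per sample, Control series in grey and Ikaros series in red. The 4 unmethylated clusters stay at or below 2.74%, the 10 methylated ones at or above 86.0%, and the Esr2 cluster spreads from 68.4% to 91.0%.

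The only Esr1 cluster (chr10:4712163-4712873) covered 5′ UTR and the first 464 of the 2047 bases that are coding in any annotated transcript. It lay 100925 bp from the outermost annotated start of Esr1 and counted as a promoter cluster through the start of a shorter processed transcript. The hormone-binding part of the receptor, which ERt2 carries, is encoded by later exons. The level was between 89.5% and 99.7% in the 18 Control samples, with a median of 96.7%, and between 88.0% and 99.5% in the 18 Ikaros samples, with a median of 97.5%. The ranges overlapped almost entirely, and the position means ran only from 94.8% to 98.5% along the cluster.

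Esr2 had 1 cluster (chr12:76177367-76177833), 108 to 574 bp upstream of its protein-coding start. Its 12 complete positions all lay at 314 to 574 bp. The other 18, at 108 to 272 bp, had no value in Control 0 h replicate 1. The level over the 12 complete positions was between 68.4% and 91.0% in the Control samples (median 74.6%) and between 77.5% and 89.6% in the Ikaros samples (median 82.9%). Over all 30 listed positions, the position means ran from 31.2% to 96.8%, the widest span among the 15 clusters. Whether a partial level arose from a share of the cells or from a share of the alleles in each cell cannot be told apart in bulk samples.

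The 3 clusters near Esrra were on both sides of the divide. The promoter cluster (chr19:6921456-6922007, 5′ UTR and upstream) ranged from 0.0% to 0.528% in the Control samples and from 0.0% to 0.67% in the Ikaros samples, with medians of 0.202% and 0.182%. A cluster downstream of the gene (chr19:6909465-6910693), which overlaps Prdx5 and Trmt112, was also unmethylated at 0.319% ± 0.295 (SD, n = 36). The cluster upstream of the gene (chr19:6926056-6926326), within Kcnk4, was at 96.8% ± 3.87 (SD, n = 36).

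Both Esrrb clusters were methylated and lay near an internal start, 60731 and 61601 bp from the outermost one. The first (chr12:86421769-86421927, coding and UTR) had medians of 95.8% in the Control series (91.1% to 97.2%) and 96.0% in the Ikaros series (90.6% to 99.4%). The second (chr12:86422514-86422922, intronic) had medians of 97.4% in the Control series (94.2% to 99.4%) and 97.0% in the Ikaros series (93.8% to 98.9%). Esrra and Esrrb, both estrogen-related receptors, therefore had promoter clusters of opposite class.

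The targets Pgr and Greb1 were methylated in every sample. The Pgr cluster (chr9:8900820-8901910, coding and UTR) had medians of 96.2% in the Control series (90.7% to 97.7%) and 95.8% in the Ikaros series (94.0% to 97.5%), and the lowest value, 90.7%, belonged to Control 0 h replicate 1. The Greb1 cluster (chr12:16800835-16801165), which spans the start, had medians of 97.7% in the Control series (91.5% to 100%) and 98.3% in the Ikaros series (93.9% to 100%).

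Nrip1 had 3 methylated clusters side by side, all close to annotated starts. The intronic cluster farthest into the gene (chr16:76372238-76372682) had medians of 97.5% in the Control series (95.1% to 98.4%) and 96.9% in the Ikaros series (92.6% to 99.7%). The cluster printed above (chr16:76372894-76373156), with a CpG observed/expected ratio of 1.15 and a GC content of 78.0%, had medians of 97.8% in the Control series (95.5% to 99.1%) and 98.4% in the Ikaros series (97.1% to 99.1%). The third (chr16:76373316-76373649), also intronic and nearest to the outermost start, had medians of 96.8% in the Control series (88.4% to 99.3%) and 95.1% in the Ikaros series (90.6% to 98.8%).

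The promoter cluster of Ncoa1 (chr12:4476435-4477093, UTR) had medians of 0.421% in the Control series (0.0% to 2.74%) and 0.297% in the Ikaros series (0.0% to 1.48%). Its intronic cluster (chr12:4459680-4459928), of which only 4 positions were complete, was at 98.3% ± 2.95 (SD, n = 36). Ncoa1 thus had an unmethylated promoter cluster and 1 methylated intronic cluster, whose 249 bp do not describe the gene body as a whole. The promoter cluster of Ncoa3 (chr2:165992617-165993281, UTR), which lies 100 bp from the start of Gm11464, had medians of 0.904% in the Control series (0.415% to 1.29%) and 0.596% in the Ikaros series (0.323% to 1.67%).

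For comparison, 13134 clusters in the data lay within 1000 bp of any annotated transcript start of a protein-coding gene, the rule also used for the members. Of these, 58.4% were below 10%, 9.17% between 10% and 90%, and 32.4% above 90%. The 12 member promoter clusters had 3 (25.0%), 1 (8.33%) and 8 (66.7%) in the same classes, and the 8 belonged to 5 genes. CpG density did not separate the members' classes: the methylated ones had CpG observed/expected ratios from 0.61 (Greb1) to 1.22 (the first Esrrb cluster), and the unmethylated ones from 0.83 (Esrra) to 1.0 (Ncoa3). Of the 12559 promoter clusters with a ratio of at least 0.6 and a GC content of at least 50%, 31.8% were above 90%.

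**Figure D2:**
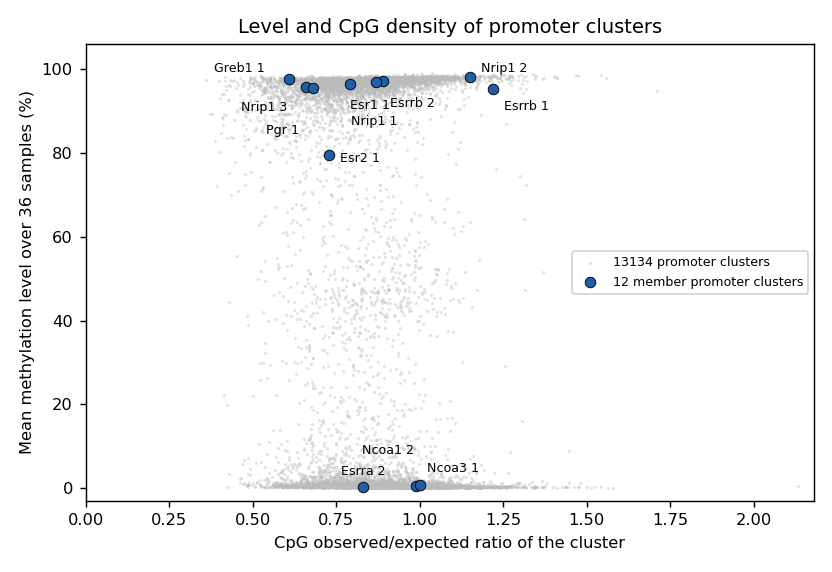
Mean level over 36 samples (%, y axis) against the CpG observed/expected ratio (x axis) of 13134 clusters within 1000 bp of a transcript start of a protein-coding gene (grey) and of the 12 member promoter clusters (blue). The 8 methylated member clusters span ratios from 0.61 to 1.22, the 3 unmethylated ones 0.83 to 1.0, and Esr2 lies between the classes at 79.5%.

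The difference between the series asked whether cells carrying the Ikaros fusion differed from cells carrying the vector over all time points. Esr2 was the 1 member cluster of 15 that passed the test, with a higher level in the Ikaros series; over all clusters 810 of 16734 passed (4.84%), 621 of them higher in the Ikaros series (3.71%). The share of members that passed (6.67%) was thus a single cluster and close to the background. The Esr2 cluster was tested on its 12 complete positions, at 314 to 574 bp upstream, and not on those nearer to the start. The mean Esr2 level of the Ikaros samples was 83.3% ± 3.71 (SD, n = 18) and that of the Control samples 75.8% ± 4.91 (SD, n = 18). The difference was 7.56 percentage points (95% interval 4.74 to 10.4), and on the M-value scale, the log2 ratio of methylated to unmethylated share, 0.64 (SE 0.173), with an adjusted p of 0.0238 by limma with Benjamini-Hochberg adjustment. Clusters with a mean level between 10% and 90% passed more often than others in the whole data, 350 of 1865 (18.8%), and Esr2 was the only member cluster in that range.

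The Control values of Esr2 at 0, 2, 6, 12, 18 and 24 h were 91.0%, 76.1%, 72.4%, 77.5%, 75.5% and 68.4% in replicate 1, 74.4%, 73.5%, 77.8%, 79.4%, 74.0% and 80.7% in replicate 2, and 70.8%, 74.6%, 73.2%, 74.6%, 71.6% and 78.0% in replicate 3. The Ikaros values at the same times were 88.0%, 82.7%, 78.7%, 80.4%, 81.6% and 86.9% in replicate 1, 87.5%, 77.5%, 82.1%, 79.1%, 78.3% and 87.7% in replicate 2, and 82.3%, 84.3%, 86.2%, 83.1%, 83.4% and 89.6% in replicate 3. All 18 Ikaros samples lay above the Control median. In replicate 3, which was a single batch, the series did not overlap (70.8% to 78.0% against 82.3% to 89.6%). The same held in replicate 1 apart from Control 0 h replicate 1, the highest value of all, whereas in replicate 2 the ranges overlapped (73.5% to 80.7% against 77.5% to 87.7%). The Ikaros mean was above the Control mean at all 6 time points, by 3.69 points at 12 h to 12.4 points at 24 h. At 0 h it was above by 7.22 points, and by 13.4 points without Control 0 h replicate 1.

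Control 0 h replicate 1 was the library with the most empty positions, and it lacked 18 of the 30 listed positions of the Esr2 cluster, while the other 35 samples lacked none. Without it, the Control mean was 74.9% ± 3.21 (SD, n = 17), the highest Control value 80.7%, and the difference in M-value 0.78 with an adjusted p of 6.19e-06 in limma. Over all 30 positions and the 35 other samples, a set chosen after the values were seen, the means were 73.0% ± 3.27 (SD, n = 18) and 68.6% ± 1.23 (SD, n = 17). The difference was 4.36 percentage points (95% interval 2.71 to 6.0), against 7.56 over the 12 complete positions in all 36 samples. In M-value it was 0.39 with an adjusted p of 0.00229 in limma. The call was lost when all listed positions were averaged with that library included (0.22, adjusted p = 0.635 in limma), within batch 1 (0.45, adjusted p = 0.801 in limma), without replicate 2 (0.69, adjusted p = 0.187 in limma) and without replicate 3 (0.49, adjusted p = 0.42 in limma). It held within batch 4 (0.93, adjusted p = 0.0316 in limma). With the shares of empty positions and of positions at 0 or 1 as covariates, the difference was 0.73 (adjusted p = 0.0434 in limma).

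Along the Esr2 cluster, the difference varied from stretch to stretch. The values are given here without Control 0 h replicate 1 (n = 17 Control and 18 Ikaros samples), as a description with no test, because the stretches were seen in the data. Nearest to the start, at 108 to 114 bp upstream, the level was low and alike in both series, 33.1% ± 6.36 (SD) in Control and 31.3% ± 7.31 (SD) in Ikaros samples. At 177 to 206 bp it was 91.7% ± 1.33 (SD) and 91.1% ± 2.58 (SD). The Ikaros samples were higher by 7.22 points at 265 to 272 bp, by 11.5 points at 314 to 319 bp and by 10.1 points at 499 to 574 bp. In the last of these the means were 76.1% ± 6.24 (SD) in Control and 86.1% ± 3.63 (SD) in Ikaros samples. Between them, at 380 to 411 bp, both series were high, at 93.8% ± 1.78 (SD) and 95.5% ± 1.8 (SD). The other 3 stretches thus differed by -1.74 to 1.71 points, against 7.22 to 11.5 points in the 3 stretches of partial methylation farther upstream. Smoothing shares information among neighbouring positions, so these positions are not independent of one another.

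**Figure D3:**
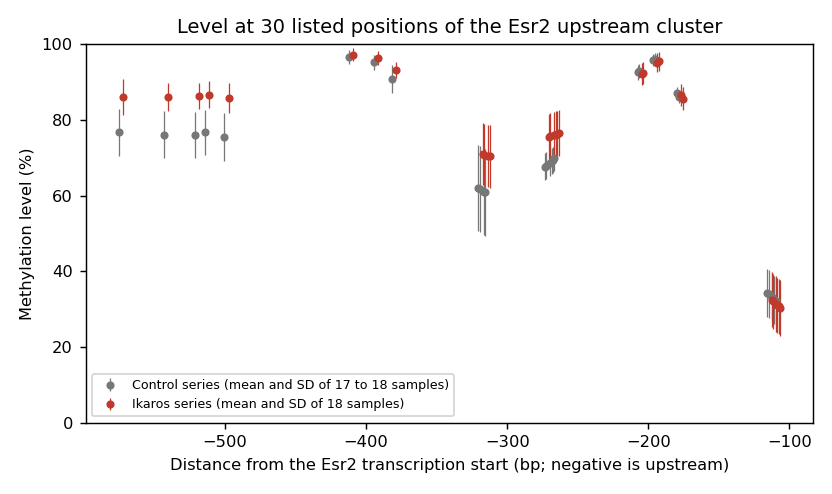
Methylation level (%, y axis) at the 30 listed positions of the Esr2 cluster by distance from the transcription start (bp, x axis), mean and SD over samples, Control series in grey and Ikaros series in red (points set slightly apart). The series coincide at 108 to 206 bp upstream, and the Ikaros series is higher at 265 to 319 bp and at 499 to 574 bp.

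In the other 14 member clusters no difference between the series passed the test, and the estimates ran from -1.57 points in the intronic Ncoa1 cluster to 0.99 points in Greb1. For Esr1 the difference was 0.0375 points with a 95% interval from -1.65 to 1.72, and for Pgr it was -0.113 points (-0.942 to 0.716). At an unadjusted p under 0.05 there were 3 member clusters (20%) against 2484 of all clusters (14.8%). Beside Esr2 these were the CpG-dense Nrip1 cluster, higher in the Ikaros series by 0.489 points (adjusted p = 0.311 in limma), and Ncoa3, with a difference of -0.187 points (adjusted p = 0.233 in limma). Neither difference passed after adjustment, and both were below 1 percentage point.

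The change after 4-OHT compared the 2 to 24 h samples with the 0 h samples of each series, and no member cluster passed the test in either series. In the Control series 0 of 15 members passed, against 3 of 16734 clusters (0.0179%). In the Ikaros series 0 of 15 passed, against 1 of 16734 clusters (0.00598%), and with both series together 0 of 15, against 0 of 16734 (0%). The count over all clusters moved with single 0 h libraries, from 3 to 196 in the Control series and from 0 to 23 in both series together without Control 0 h replicate 2, and from 1 to 28 in the Ikaros series and from 0 to 14 in both series together without Ikaros 0 h replicate 2, while that of the members stayed at 0. At an unadjusted p under 0.05 there were 1, 0 and 1 member clusters in these 3 limma tests, Esr2 in both cases, against 1391 (8.31%), 907 (5.42%) and 1040 (6.21%) of all clusters. Fitted on levels in place of M-values, the limma tests again called none of the members.

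The mean level of Esr1 was 98.0% ± 1.67 (SD, n = 3) before and 96.2% ± 2.4 (SD, n = 15) after 4-OHT in the Control series, and 96.8% ± 1.92 (SD, n = 3) and 96.5% ± 3.03 (SD, n = 15) in the Ikaros series. For the targets, Pgr was at 94.5% ± 3.32 before and 96.1% ± 0.886 after in the Control series, and at 95.3% ± 1.1 and 95.8% ± 0.907 in the Ikaros series (SD, n = 3 before and 15 after). The Control value of Pgr before 4-OHT rested on Control 0 h replicate 1 (90.7%), since without it the mean was 96.4% (n = 2) and the change in M-value went from 0.23 to -0.03. Greb1 was at 97.3% ± 1.07 and 97.1% ± 2.22 in the Control series and at 97.5% ± 3.23 and 98.3% ± 1.67 in the Ikaros series (SD, same n). The 95% interval of the change ran from -5.13 to 1.49 points for Esr1, from -0.0516 to 3.29 points for Pgr and from -2.73 to 2.28 points for Greb1 in the Control series. In the Ikaros series it ran from -3.65 to 2.97, from -1.16 to 2.19 and from -1.74 to 3.26 points. The change in M-value of Greb1 in the Ikaros series went from 0.17 to -0.65 without Ikaros 0 h replicate 1.

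Among the coregulators, the changes of the unmethylated promoters were narrow: from -0.661 to 0.845 points (95% interval) for Ncoa1 and from -0.489 to 0.304 points for Ncoa3 in the Control series, and from -0.902 to 0.604 and from -0.299 to 0.494 points in the Ikaros series. The CpG-dense Nrip1 cluster was at 97.4% ± 1.78 (SD, n = 3) before and 97.9% ± 0.513 (SD, n = 15) after in the Control series, and at 98.1% ± 0.828 (SD, n = 3) and 98.4% ± 0.658 (SD, n = 15) in the Ikaros series. Its change in M-value in the Control series went from 0.08 to -0.42 without Control 0 h replicate 1. The unmethylated Esrra promoter was at 0.37% ± 0.0367 (SD, n = 3) and 0.204% ± 0.186 (SD, n = 15) in the Control series and at 0.139% ± 0.178 (SD, n = 3) and 0.22% ± 0.173 (SD, n = 15) in the Ikaros series. Before and after 4-OHT, the mean of each of the 12 promoter clusters lay in the same class in both series.

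**Figure D4:**
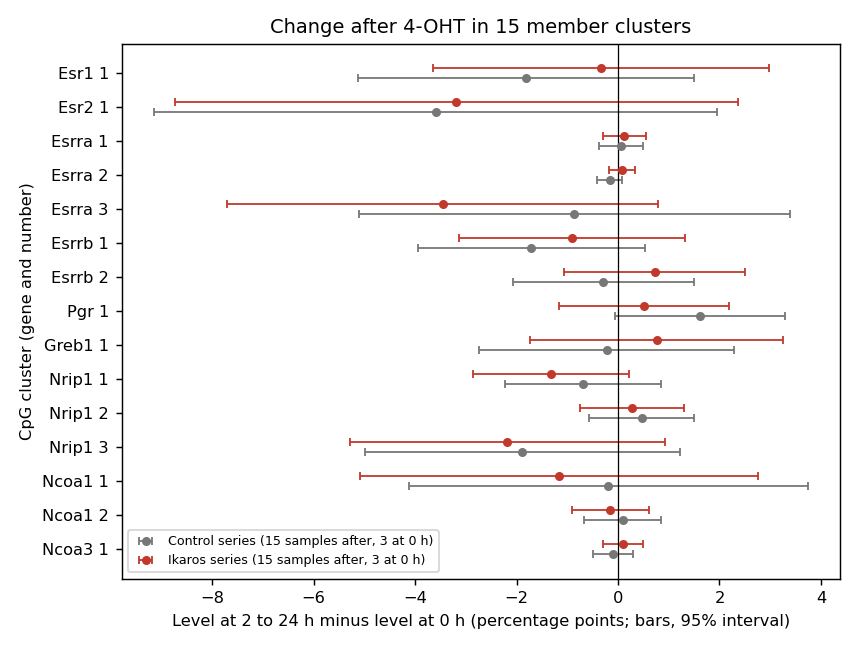
Change of the level after 4-OHT (mean of the 2 to 24 h time points minus 0 h, percentage points, x axis) in each member cluster (y axis), with 95% intervals from the limma fit on levels, Control series in grey and Ikaros series in red. All 30 intervals include 0, and the widest are those of Esr2.

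In the Control series, the Esr2 change after 4-OHT rested on 1 library. The level was 78.7% ± 10.8 (SD, n = 3) before and 75.2% ± 3.23 (SD, n = 15) after, a difference in M-value of -0.8 (unadjusted p = 0.027, adjusted p = 0.515 in limma). Without Control 0 h replicate 1 the estimate was 0.15. Within batch 1, where that library was the only Control sample before 4-OHT, the estimate was -2.82 and passed (adjusted p = 0.00147 in limma), and within batch 4 it was 0.17. In the Ikaros series the level was 86.0% ± 3.14 (SD, n = 3) before and 82.8% ± 3.68 (SD, n = 15) after, with a difference in M-value of -0.36 (adjusted p = 0.963 in limma). Its estimate was -0.81 within batch 1 (adjusted p = 0.489 in limma) and 0.28 within batch 4.

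Whether the change after 4-OHT differed between the series was tested directly, and 0 of 15 member clusters passed, against 1 of 16734 clusters (0.00598%). Over all clusters the count was 12 without Control 0 h replicate 2 and 7 without Ikaros 0 h replicate 2, with 0 of 15 members in both cases. None of the 15 reached an unadjusted p under 0.05 in limma, against 1201 of all clusters (7.18%). For Esr2 the difference between the changes was 0.401 points with a 95% interval from -7.45 to 8.25, and for Esr1 1.48 points (-3.2 to 6.15), so differences of a few points could not be seen with 3 samples at 0 h.

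A change among the 6 time points in either series was tested with a moderated F test in limma. In the Control series 0 of 15 members passed, against 2 of 16734 clusters (0.012%), and in the Ikaros series 0 of 15, against 0 of 16734 (0%). With 1 sample left out at a time, the count over all clusters ranged from 0 to 12 in the Control series, with 12 without Control 0 h replicate 2, and from 0 to 5 in the Ikaros series, and no member passed. At an unadjusted p under 0.05 there was 1 member in the Control series (6.67%, all clusters 4.83%) and there were 4 in the Ikaros series (26.7%, all clusters 5.22%). The member in the Control series was the first Esrrb cluster (adjusted p = 0.991 in limma), with group means from 93.4% at 2 h to 96.6% at 0 h.

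Of the 4 in the Ikaros series, Esr2 had group means of 86.0% at 0 h, between 80.9% and 82.3% from 2 h to 18 h, and 88.1% ± 1.43 (SD, n = 3) at 24 h (adjusted p = 0.821 in limma). The 12 samples from 2 h to 18 h lay between 77.5% and 86.2%, and the 3 samples at 24 h between 86.9% and 89.6%. The cluster upstream of Esrra ranged from 91.9% at 12 h to 100% at 24 h (adjusted p = 0.83 in limma). The share of positions at exactly 0 or 1 over the whole table was 35% to 45.0% in the Ikaros samples at 0 h, 26.9% to 41.2% from 2 h to 18 h and 41.3% to 59.1% at 24 h. It reached its highest value at 24 h, like the Esr2 and Esrra means, but did not follow them from 2 h to 18 h. At 12 h, where both means were lowest, it was 32.1% to 41.2%, against 28.9% to 35.8% at 6 h. With this share and that of empty positions as covariates, the F test again called no member. The part of the share in these levels was not tested otherwise. The intronic Nrip1 clusters ranged from 94.1% at 6 h to 98.2% at 12 h and from 92.7% at 18 h to 97.2% at 6 h (adjusted p = 0.924 in limma for each). The Nrip1 clusters had their lowest means at different time points, and none of the 4 passed after adjustment.

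**Figure D5:**
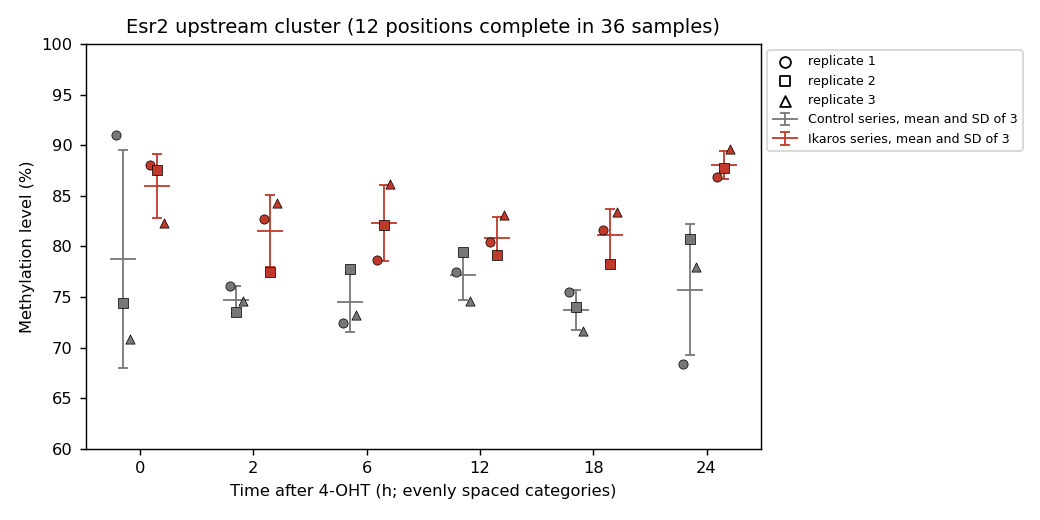
Level of the Esr2 cluster over its 12 complete positions (%, y axis, from 60% to 100%) by time after 4-OHT (h, x axis), with each sample as a point (shape by replicate) and the mean and SD of 3 samples, Control series in grey and Ikaros series in red. Control 0 h replicate 1 stands at 91.0% above the other Control samples (68.4% to 80.7%), and the Ikaros samples lie between 77.5% and 89.6%.

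Other genes of the pathway were taken from 6 lists (nuclear receptors, coactivators, corepressors, receptor chaperones, pioneer factors and estrogen receptor targets) with 58 genes, of which 49 had 114 clusters. In the comparison of the series 6 of the 114 passed (5.26%, all clusters 4.84%), 5 higher and 1 lower in the Ikaros series, and the median difference in M-value was 0.04 (all clusters 0.03). By list, 1 of 26 clusters passed for the nuclear receptors, 0 of 33 for the coactivators, 2 of 23 for the corepressors, 0 of 8 for the chaperones, 2 of 11 for the pioneer factors and 1 of 13 for the targets. At an unadjusted p under 0.05 in limma there were 16 of the 114 (14.0%, all clusters 14.8%), which were 2, 3, 4, 0, 3 and 4 clusters of the lists in the same order. None of the 114 passed for the change after 4-OHT in the Control series (all clusters 0.0179%) or in the Ikaros series (0.00598%), and at an unadjusted p under 0.05 in limma there were 10 (8.77%, all clusters 8.31%) and 13 (11.4%, all clusters 5.42%). Over the time points 0 of 114 passed in the Control series (all clusters 0.012%) and in the Ikaros series (0%), with 7 (6.14%, all clusters 4.83%) and 6 (5.26%, all clusters 5.22%) at an unadjusted p under 0.05 in limma.

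A promoter cluster of Esrrg (chr1:187608491-187608811), the third estrogen-related receptor gene, was partly methylated like Esr2 and higher in the Ikaros series, at 55.8% ± 8.08 against 44.1% ± 10.2 (SD, n = 18 each, adjusted p = 0.0117 in limma). Other Esrrg promoter clusters, at 89.2%, 95.6% and 97.2%, did not pass. Cxcl12, a chemokine gene that estrogen induces in other cells, had a promoter cluster (chr6:117169137-117169509) at 88.0% ± 7.13 against 69.9% ± 21.2 (SD, n = 18 each, adjusted p = 0.0212 in limma), with a wide spread among the Control samples.

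The pioneer factors, which open chromatin for the receptor in breast cells, had 2 clusters that passed. Gata3 had a gene-body cluster (chr2:9882393-9883711) at 91.0% ± 1.61 in the Ikaros and 87.5% ± 3.06 in the Control series (SD, n = 18 each, adjusted p = 0.00187 in limma), and Foxa1 a flanking cluster (chr12:57538599-57539158) at 96.4% ± 1.36 and 95.1% ± 1.01 (SD, n = 18 each, adjusted p = 0.0427 in limma). Among promoter clusters, 24 of 27 of the coactivators and 7 of 7 of the chaperones were below 10%, as were those of the members Ncoa1 and Ncoa3, against 58.4% of all promoter clusters. Of the nuclear receptors, 14 of 20 promoter clusters were above 90% and 2 below 10%, against 32.4% of all promoter clusters above 90%. The corepressors had 9 of 16 below 10% and 5 above 90%, the pioneer factors 1 and 4 of 7, and the targets 6 and 2 of 10.

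An estrogen response element in its full form (GGTCANNNTGACC, searched on both strands) was present in none of the 15 member clusters and in 0.0538% of the 16734 clusters. It was also in none of the 12 entries of the RefSeq promoter table that belong to 8 of the 9 genes, and in 0.07% of all 32851 promoters of 300 bases in it. The element of the estrogen-related receptors (TCAAGGTCA, both strands) was likewise in none of the members and in 0.353% of the clusters and 0.423% of the promoters. The core motif GGTCA, which is part of both, was in 7 of the 15 member clusters and in 47.6% of all clusters. In the Esr2 cluster it occurred at 234 to 238 and at 307 to 311 bp upstream of the start. The second of these is 3 bp from the nearest of the positions at 314 to 319 bp. These matches describe letters only and say nothing about binding.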

How the data were processed

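RRBS was measured in 36 samples. According to the study's methods and the labels, the authors trimmed the reads, mapped them with Bismark 0.10.1 to mm10 (GRCm38), called methylation levels and smoothed them with BiSeq inside CpG clusters. The authors deposited each position's smoothed level as a fraction, printed here as a percentage, and its M-value, log2(b/(1 - b)) with b limited to 0.01 to 0.99. Coverage was not analysed here, so no coverage minimum or counting error is given and precision is the spread between replicates.

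Cluster values were means over the positions measured in all 36 samples. Clusters were tested on mean M-values with limma 3.58.1 in R 4.3.3, adjusted over 16734 clusters (Benjamini-Hochberg, threshold 0.05). The series difference was fitted with time point as a factor, and changes after 4-OHT from the 12 group means. Differences in percentage points and their 95% intervals came from the same fits on levels. The fits were tested on simulated data. The study calls the replicates biological batches, and p-values measure the spread between these samples.

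Replicate numbers mark batches in the labels, so they pair the samples. Over 198 pairs of same-numbered samples of different groups, deviations from the group means correlated at -0.000326 on average. Gene positions came from GENCODE M21 and sequences from GRCm38.p6 and RefSeq (Python 3.11.15, pysam 0.24.0). The members, lists and tests were chosen with earlier results of these data known. Values are given for each cluster that passed a test and each member's promoter cluster; for likeness, the 3 clusters outside the members with the highest correlation to the member cluster of widest range were named. Alternatives were levels in place of M-values, a replicate block, other position sets, coverage measures as covariates, a level filter, single batches, other windows, and each sample or replicate left out. Some items are not reported here.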

Additional observations from a re-analysis of the deposited data

How the results depend on the processing

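The depth behind the values is unknown, smoothing ties neighbouring positions together, and only 3 samples per series stand for the time before 4-OHT, so changes of a few points could not be seen in the partly methylated Esr2 cluster. The number of member clusters passing for the series difference (1) fell to 0 with all listed positions and within batch 1, and ranged from 0 to 1 when samples or replicates were left out, with 0 without replicate 2 and 0 without replicate 3. Without any 1 of the 36 samples, the Esr2 difference in M-value lay between 0.57 and 0.78 with adjusted p in limma from 6.19e-06 to 0.0424. Its 48 alternatives kept the direction, 44 of them with the call and 4 without. Within batch 1, 1 member (Esr2) passed for the change after 4-OHT in the Control series (-2.82) and 1 in both series together (-1.82, adjusted p = 0.00347 in limma). These fits have 1 sample per series before 4-OHT, which is assumed to vary like the others, and they called 919 and 706 clusters in all. In the other tests the number of members passing was 0 under every alternative run, ranging from 0 to 0 when samples or replicates were left out.

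With the replicate block the Esr2 series difference was 0.64 (adjusted p = 0.0288 in limma), with 1 member passing. The block changed no call on a member, while over all clusters it moved the calls for the change after 4-OHT from 3 to 9 in the Control series and from 1 to 0 in the Ikaros series. It treats replicate 2 as 1 batch, although its 0 h samples were batch 2 and its later ones batch 3. The 810 of 16734 clusters passing for the series difference became 335 with the coverage measures as covariates, 368 to 543 without a replicate, and 43 and 71 within batches 1 and 4. When the 1865 clusters with a mean level between 10% and 90% alone were tested, 464 passed, against 350 of the same clusters in the test of all 16734. For the change after 4-OHT in the Control series, the count of 3 became 196 without Control 0 h replicate 2, 124 without Control 0 h replicate 3, 18 without Control 0 h replicate 1 and 15 with the covariates. In the Ikaros series, the count of 1 became 28 without Ikaros 0 h replicate 2. For both series together, the count of 0 became 23 without Control 0 h replicate 2, 14 without Ikaros 0 h replicate 2 and 10 without replicate 2. For the difference between the changes, the count of 1 became 12 and 7 without these 2 libraries. Within batches 1 and 4 the tests of the change after 4-OHT called between 149 and 919 clusters. The mean Esr2 level was 79.5% over the 12 complete positions, 71.4% over all listed positions and 70.9% over the positions complete in the 35 samples without Control 0 h replicate 1. Of 3482 alternative estimates for differences that did not pass, 231 changed sign. The cause of these changes was not tested.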

Other observations

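Among the 15 member clusters, the Esr2 cluster had the widest range over the 36 samples. The 3 other clusters whose mean M-value followed it most closely over these samples lay near Foxo6 (chr4:120287791-120288061, 442 bp from the nearest start, r = 0.89), at Tmem45b (chr9:31463744-31464258, r = 0.8) and at Tsc22d1 (chr14:76504160-76504504, r = 0.8). Without Control 0 h replicate 1 the correlations were 0.83, 0.75 and 0.82. Their mean levels were 85.0%, 82.0% and 59.9%, and in Control 0 h replicate 1 they stood at 96.8%, 89.0% and 74.9%, as a description of these samples, which share series, libraries and depth.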
